A study of Mus musculus with 2 samples.

Results

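Intronic distal open regions are stretches of accessible chromatin that lie inside genes, away from every annotated start of transcription and outside every exon. In mouse blood neutrophils, 6499 of 24882 merged open regions were of this kind, or 26.1% (95% Wilson interval 25.6 to 26.7%). They were found from the peak list that the authors pooled over both replicates and named conservative. Overlapping intervals of that list were merged, and each merged region was represented by the summit of its interval of highest signal value. A region was kept where that summit lay over 1 kb from every GENCODE M21 transcript start, inside a gene body and in no exon of any transcript. The remaining regions were 11644 promoter regions with a summit within 1 kb of a start, 5923 intergenic distal regions and 816 exonic distal regions.

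Open chromatin away from start sites is where enhancers, silencers and insulators are usually found, and introns hold a large part of it in mammalian genomes. ATAC-seq marks such chromatin because the Tn5 transposase inserts sequencing adapters more readily where no nucleosome covers the DNA. In neutrophils and their precursors, PU.1, C/EBP and RUNX proteins are the transcription factors best known to act at such sites, and CTCF binds insulators and the anchors of chromatin loops in most cell types.

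The study profiled neutrophils of peripheral blood from adult C57BL/6J mice aged 5 to 6 weeks by ATAC-seq, with 50000 cells in each library. It had 1 group of 2 replicates and no other genotype, treatment or cell type. Library size ranges were labelled 151 to 347 for replicate 1 and 151 to 379 for replicate 2, with no unit, and sex was not collected. Both replicates carry separate biosample records under the same donor record, and no label says that they came from separate mice, so the spread between them may be technical. The labels name no sort or purification step and no transgene.

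Depth per library is unknown, because the files give peaks and not read numbers, and the lists of the replicates differed in size. Lists cut by the irreproducible discovery rate (IDR, a measure of how far peak ranks repeat) held 27709 merged regions in replicate 1 and 14548 in replicate 2. A larger, less stringent list, named pseudoreplicated by the authors, held 47640 merged regions in replicate 1 and 29848 in replicate 2. The signal value used here is the authors' own score for each peak, whose definition is not given in the sources used here. It ranks regions within a list, and values from different lists are set side by side without being compared as levels.

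The label was checked through genes that mark blood cell types. Of 30 neutrophil genes with intron eligible under the rule, 22 had an open promoter, meaning that a region of any class reached within 1 kb of any of their start sites. Over all 19252 protein-coding genes with eligible intron, 9546 did (49.6%), and the counts below are to be read beside that share. Those 22 included Csf3r, the receptor for granulocyte colony-stimulating factor, Cxcr2, a chemokine receptor that draws neutrophils into blood and tissue, and S100a9, a subunit of calprotectin. Ly6g, which encodes a surface antigen used to identify mouse neutrophils, and the granule genes Camp, Ngp and Ltf had none. Of 18 B-cell genes, 16 had an open promoter, among them Cd79a, Cd79b and Ms4a1, which encodes CD20. The counts were 3 of 17 for T cells, 3 of 11 for natural killer cells, 4 of 17 for monocytes and macrophages, 4 of 12 for megakaryocytes and platelets, 1 of 15 for eosinophils, basophils and mast cells, 5 of 12 for erythroid cells and 2 of 18 for neurons. The part that other cells played in any intronic region was not tested.

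Windows reaching 100 bp to either side of the summit are printed here for 7 intronic regions to show what such regions look like in sequence. The first belongs to the region of highest signal value, the next pair to Fgfr2 and Pde4d, which follow Gm20388 in number of regions, and the others to genes of neutrophil function or transcriptional control. The windows lie at chr16:18533161-18533361 (Gnb1l), chr7:130533392-130533592 (Fgfr2), chr13:109776189-109776389 (Pde4d), chr7:128089230-128089430 (Itgam), chr10:77551028-77551228 (Itgb2), chr5:149274902-149275102 (Alox5ap) and chr16:92620815-92621015 (Runx1). All are read 5′ to 3′ on the plus strand of GRCm38 (mm10), with the summit at the central base. Capitals mark matches on either strand to GAGGAAGT (named the PU.1 core here), CAGGAAGT (ETS core), TTGCNNAA (CEBP), TGTGGT (RUNX core), TGANTCA (AP-1) or a CTCF motif of 12 letters, where N is any base. A match is a string of letters and not a measured binding site.
Gnb1l: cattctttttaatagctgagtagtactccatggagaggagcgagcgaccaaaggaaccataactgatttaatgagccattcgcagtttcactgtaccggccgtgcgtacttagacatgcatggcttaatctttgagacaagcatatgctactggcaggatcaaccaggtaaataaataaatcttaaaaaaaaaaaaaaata
Fgfr2: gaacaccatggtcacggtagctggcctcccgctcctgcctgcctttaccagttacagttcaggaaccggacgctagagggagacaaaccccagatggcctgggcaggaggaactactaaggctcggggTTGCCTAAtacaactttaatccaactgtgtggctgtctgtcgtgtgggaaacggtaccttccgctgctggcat
Pde4d: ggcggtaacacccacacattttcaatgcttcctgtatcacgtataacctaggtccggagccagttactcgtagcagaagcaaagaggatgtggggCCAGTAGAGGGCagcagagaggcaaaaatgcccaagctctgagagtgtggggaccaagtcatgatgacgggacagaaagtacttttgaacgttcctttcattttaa
Itgam: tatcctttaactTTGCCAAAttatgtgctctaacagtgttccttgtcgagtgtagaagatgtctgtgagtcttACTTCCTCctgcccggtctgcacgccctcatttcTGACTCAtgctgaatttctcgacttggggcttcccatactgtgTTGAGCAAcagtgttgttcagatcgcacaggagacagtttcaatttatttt
Itgb2: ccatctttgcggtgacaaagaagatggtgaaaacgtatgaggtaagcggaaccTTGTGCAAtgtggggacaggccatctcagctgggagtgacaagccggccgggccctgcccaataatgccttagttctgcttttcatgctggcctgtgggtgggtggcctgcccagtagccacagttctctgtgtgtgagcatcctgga
Alox5ap: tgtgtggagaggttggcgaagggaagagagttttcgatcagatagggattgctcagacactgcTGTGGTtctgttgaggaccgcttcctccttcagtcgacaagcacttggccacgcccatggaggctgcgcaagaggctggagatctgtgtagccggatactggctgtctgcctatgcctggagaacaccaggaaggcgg
Runx1: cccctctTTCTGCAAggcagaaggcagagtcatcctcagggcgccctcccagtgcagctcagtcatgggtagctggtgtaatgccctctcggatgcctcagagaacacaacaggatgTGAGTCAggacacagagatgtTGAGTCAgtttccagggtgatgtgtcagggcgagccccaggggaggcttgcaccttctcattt

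The 7 windows differed widely in what they held. The Gnb1l window had no match to any of the 6 motifs. The Pde4d window held 1 CTCF match at bases 96 to 107, over its summit. The Itgam window, from intron 12 of the gene for the integrin subunit alpha M (CD11b), held a PU.1 core match at bases 74 to 81, an AP-1 match at bases 108 to 114 and a pair of CEBP matches. The Itgb2 window, from intron 8 of the gene for the shared beta 2 integrin subunit, held a CEBP match at bases 54 to 61. Alox5ap encodes the protein that presents arachidonic acid to 5-lipoxygenase in leukotriene synthesis, and its window held a RUNX core match at bases 64 to 69. The Runx1 window held 2 AP-1 matches and 1 CEBP match, and the Fgfr2 window, which also lies in Nsmce4a, held 1 CEBP match at bases 129 to 136.

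Replicate 1 found most intronic regions and replicate 2 fewer than that. Of the 6499, 5806 overlapped the IDR list of replicate 1 by at least 1 bp, or 89.3% (88.6 to 90.1%), against 91.9% of all 24882 regions. The list of replicate 2 held 2603 of them, or 40.1% (38.9 to 41.2%), against 57.2% of all regions. Shares for intergenic distal regions were 89.5% in replicate 1 and 43% in replicate 2, and promoter regions reached 94.7% and 75.3%. Both lists held 2574 intronic regions, 3232 were in the list of replicate 1 alone, 29 in that of replicate 2 alone and 664 in neither. The less stringent lists held 99.8% of the intronic regions in replicate 1 and 91.5% in replicate 2, and only 7 regions were absent from all 4 lists of the replicates. All intervals cover counting error only, and they treat regions as independent.

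How often replicate 2 found an intronic region followed the signal value. Cut at the quartiles of all regions, intronic regions fell into groups of 1908, 2029, 1576 and 986 from the lowest signal value to the highest. Replicate 2 held 12.2%, 29.7%, 58.9% and 85.2% of these groups, in that order. Replicate 1 held 73.6%, 91.4%, 99.1% and 100%. Intergenic distal regions in groups cut the same way were held by replicate 2 at 11.9%, 29.9%, 58.4% and 87.4%, so at a given signal value both kinds were found about equally often. Across the 2574 intronic regions in both lists, the rank correlation (Spearman) between replicate 1 and replicate 2 was 0.743, with all points from the same 2 libraries.

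**Figure D1:**
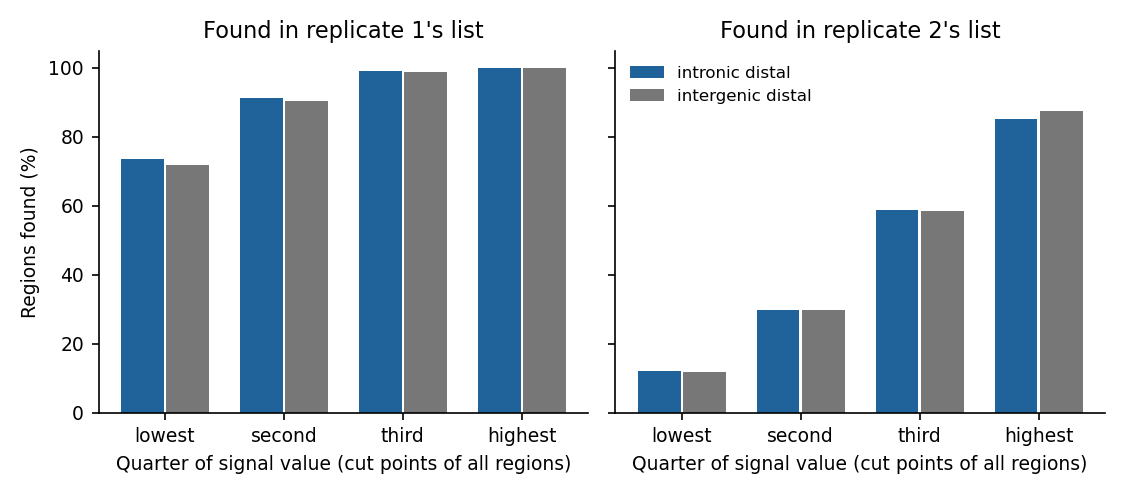
Share of intronic distal regions (blue) and intergenic distal regions (grey) found in the IDR list of replicate 1 (left panel) and replicate 2 (right panel), in percent, for 4 groups cut at the quartiles of signal value of all regions. The share in replicate 2 climbs from 12.2% to 85.2% across the groups for intronic regions and from 11.9% to 87.4% for intergenic regions.

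Intronic regions were of moderate signal and width. Their signal value had a median of 10.1 (quartiles 8.13 and 12.8, range 1.98 to 33), against 10.6 in intergenic distal, 9.26 in exonic distal and 12.5 in promoter regions. Their median width was 346 bp, against 343, 331.5 and 543 bp in the same classes. The eligible introns cover 1014.9 Mb, 38.3% of the bases assigned to a class. Intronic regions stood at 6.4 per Mb of that sequence (exact Poisson interval 6.25 to 6.56), against 4.27 per Mb in intergenic, 9.68 in distal exonic and 72.7 in promoter sequence. In the list of replicate 1 the densities were 7.67 per Mb in introns and 4.93 in intergenic sequence, and in that of replicate 2 they were 2.6 and 1.85. The intronic density averaged 5.13 ± 3.58 per Mb over the replicates (SD, n = 2) and the intergenic density 3.39 ± 2.18, so the spread between replicates exceeded the difference, whose direction was the same in both. As a share of all regions in a list, intronic regions made up 28.1% in replicate 1 and 18.1% in replicate 2.

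Density varied among chromosomes. It was highest on chromosomes 19 and 11, at 9.26 and 9.2 regions per Mb, and lowest on the X chromosome, at 2.13 per Mb from 95 regions, with 120 in the list of replicate 1 and 23 in that of replicate 2. No intronic region was listed on the Y chromosome. Summits lay a median of 7427 bp from the nearest start site of any transcript, and 435485 bp at most. Within 2 kb of a start lay 786 regions (12.1%), and 278 (4.28%) were over 50 kb away. The nearest other open region was a median of 9192 bp away, against 8986 bp for intergenic distal regions.

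At the 1 kb limit itself, regions on either side were much alike. The 415 intronic regions with a summit 1 to 1.5 kb from a start had a median signal value of 9.12, and 41.7% were in the list of replicate 2. The 624 regions in an intron but 0.5 to 1 kb from a start, which count as promoter regions, had a median of 8.81, and 41.5% were in that list.

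Base composition set the intronic regions apart from promoters more than from their surroundings. The median GC share within 150 bp of the summit was 49.2%, against 45.5% in 11254 flanking windows 1 kb to either side, 49.2% in intergenic distal and 61.5% in promoter regions. Windows rich in CpG, with over 50% GC and an observed-to-expected CpG ratio over 0.6, numbered 158 among the intronic regions (2.43%). That share was 5.86% in intergenic distal, 12.1% in exonic distal and 68.3% in promoter regions. The summit lay in a soft-masked repeat in 9.65% of intronic regions (8.95 to 10.4%), against 2933 of 11254 flank centres (26.1%).

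Matches to the motifs of myeloid transcription factors were more frequent at intronic summits than in the flanks. Each motif was searched on both strands within 50 bp of the summit, so matches near the ends of the printed windows are not counted. The PU.1 core GAGGAAGT was present at 619 intronic summits, or 9.52% (8.83 to 10.3%), against 0.489% of flanks (0.376 to 0.636%), 8.15% of intergenic distal regions and 6.15% of all regions. It stood at 8.77% in the list of replicate 1 and 10.7% in that of replicate 2. The longer form AGAGGAAGT, which contains the core, was present at 5.06% of intronic summits, against 0.16% of flanks and 3.07% of all regions. The PU.1 core stood at 12.4% of the highest of 4 equal groups of intronic regions by signal value and 7.82% of the lowest. Within that highest group, matches were at 0 of the 10 strongest regions and 7.78% of those ranked 11 to 100. Among the next 900 regions they were at 14.3%.

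RUNX and AP-1 motifs followed, with smaller ratios over the flanks. The RUNX core TGTGGT was present at 1014 summits (15.6%, 14.7 to 16.5%), against 8.17% of flanks and 10.7% of all regions, with 15.8% in replicate 1 and 16.1% in replicate 2. Intergenic distal regions had nearly the same share, 14.7%, and the interval of the difference included 0 (-0.402 to 2.12 points). Its longer form TGTGGTTT, which contains the core, was at 2.6% of summits against 0.844% of flanks and 1.64% of all regions. AP-1, the dimer of Fos and Jun proteins, has the motif TGANTCA, present at 480 summits (7.39%, 6.77 to 8.05%), against 2.8% of flanks and 4.74% of all regions. In replicate 1 its share was 7.13% and in replicate 2 8.6%. Among intergenic distal regions it was 6.3%, a difference of 1.09 points (0.198 to 1.98). The NFE2 and MAF motif GCTGAGTCA, which contains an AP-1 match, was at 0.8% of summits against 0.142% of flanks and 0.486% of all regions.

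The C/EBP motif differed least from the flanks among these. TTGCNNAA was present at 416 intronic summits (6.4%, 5.83 to 7.02%), against 3.83% of flanks (3.49 to 4.2%) and 5.08% of all regions, with 6.18% in replicate 1 and 6.74% in replicate 2. Intergenic distal regions stood at 6.64%, and the interval of the difference included 0 (-1.11 to 0.634 points). The form with 1 base more, TTGCNNCAA, which can share a site with the shorter form, was at 0.785% of summits (0.597 to 1.03%) and 0.88% of flanks (0.723 to 1.07%), with intervals that overlap, and at 0.707% of all regions. No match to the PU.1 core, CEBP, RUNX core or AP-1 was present at 66.5% of intronic summits, against 85.4% of flanks and 68.4% of intergenic distal regions. Matches to 2 of the 4 stood at 4.62% of summits, against 0.604% of flanks and 3.8% of intergenic distal regions. Matches to 3 stood at 25 intronic regions, and no intronic region held all 4. Replicate 2 held 38.1% of the regions with no match, 43.8% of those with 1, 44% of those with 2 and 52% of those with 3.

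Of the 25 motifs searched, CTCF had the highest ratio of intronic summits to flanks, 102.2. Matches stood at 767 intronic summits (11.8%, 11 to 12.6%), against 13 of 11254 flanks (0.116%) and 9.26% of all regions. Intergenic distal regions had more, at 15.8%, a difference of -4 percentage points (Newcombe interval -5.22 to -2.79). The difference was -4.01 points in the list of replicate 1 and -2.61 in that of replicate 2. In the same 4 groups, from the lowest signal value to the highest, CTCF matches stood at 10.8%, 14.6%, 13.2% and 8.62%, and the PU.1 core at 7.82%, 9.24%, 8.68% and 12.4%, so neither changed evenly with signal.

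Ordered by distance from the summit, the 5 motifs showed peaks of different sharpness. Per 25 bp, CTCF matches stood at 5.05% of regions within 25 bp of the summit and at 0.0442% at 400 to 500 bp, a ratio of 114.1. That ratio was 18.5 for the PU.1 core, 2.93 for AP-1, 2.16 for the RUNX core and 1.74 for CEBP. The short RUNX core and the CEBP motif, which holds 2 free bases, also had the higher levels far from the summit, at 2.16% and 1.04% per 25 bp.

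**Figure D2:**
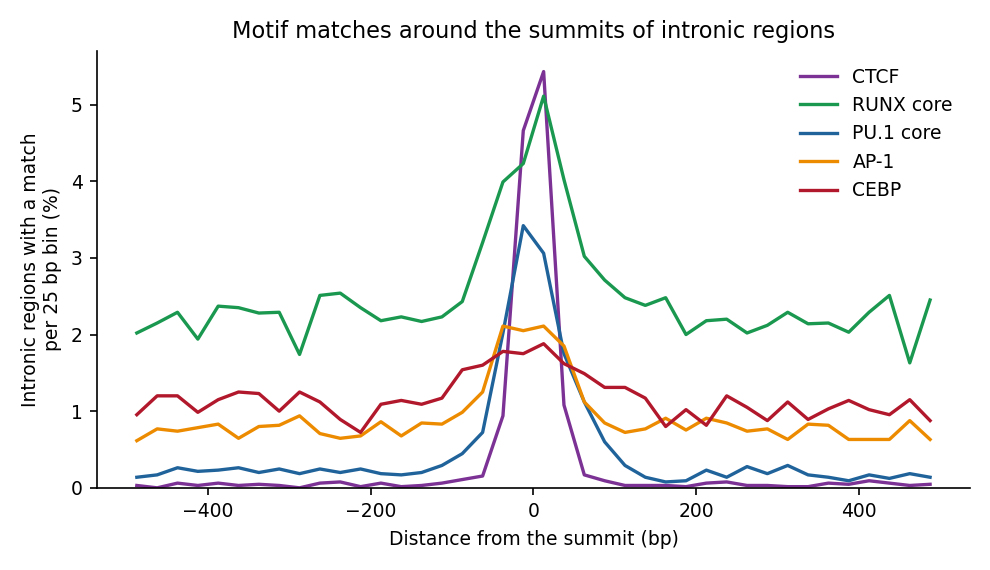
Share of the 6499 intronic regions with a motif match in each 25 bp bin (vertical axis, percent) by distance from the summit (horizontal axis, bp). CTCF and PU.1 core matches are nearly limited to the centre, whereas RUNX core, AP-1 and CEBP matches rise over a level that continues to 500 bp.

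Other motifs fell into groups. Among ETS motifs, CAGGAAGT stood at 6.29% of summits against 0.764% of flanks and 4.32% of all regions, and CCGGAAGT, the form common in housekeeping promoters, at 0.646% against 0.0267% and 2.87%. The composite of ETS and IRF (GGAA, any 2 bases, then GAAA) stood at 3.66% of summits, 0.773% of flanks and 2.28% of all regions. The interferon-type motif (GAAA, any 2 bases, then GAAA) was at 1.89% of summits, 1.28% of flanks and 1.57% of all regions, and the NF-kB motif (GGGA, any 4 bases, then CC) at 6.54%, 3.84% and 7.76%. OCT (ATGCAAAT) was at 1.72%, 0.435% and 1.31%, and KLF (GGGTGTGG) at 2.35%, 1% and 1.87%. E-boxes were at 8.77%, 4.72% and 7.02% for CAGCTG, and at 2.68%, 1.35% and 3.71% for CACGTG.

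Motifs common at promoters were less frequent at intronic summits than over all regions, though above the flanks. The SP motif GGGCGG stood at 5.69% of them, against 1.53% of flanks and 21.1% of all regions. NFY (GCCAAT) was at 3.35%, 2.67% and 8.2%. The motif AGATAA, bound by GATA factors of erythroid cells and megakaryocytes, was less frequent at summits than in the flanks, at 2.72% (2.35 to 3.15%) against 5.54% (5.14 to 5.98%), and at 1.88% of all regions. HNF1 (TTAATNATT), of liver and kidney, was at 5 summits (0.0769%) against 0.604% of flanks and 0.0643% of all regions. The flanks are poorer in GC, which bears on motifs of A and T, and its part was not tested. The glucocorticoid receptor motif ACANNNTGT was at 4.52% against 3.25% and 2.75%, STAT (TTCCNGGAA) at 0.231% against 0.275% and 0.317%, and NR4A (AAAGGTCA) at 0.477% against 0.462% and 0.338%.

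Intron number was taken from the principal transcript of each protein-coding host. In these introns lay 5182 regions, forming 5286 pairs of a region and an intron where genes overlap, and 567 regions with a protein-coding host lay outside them. First introns held 1741 pairs (32.9%, 31.7 to 34.2%) on 25.3% of the eligible bases. Their density was 8.55 regions per Mb (8.15 to 8.96), against 5.91 in all later introns (5.72 to 6.11). It was 7.11 in intron 2, 6.01 in intron 3, 6.2 in intron 4 and 5.36 from intron 5 on. The ratio of first to later introns was 1.45 in the pooled list, 1.46 in replicate 1 and 1.52 in replicate 2, a mean of 1.49 ± 0.0432 over the replicates (SD, n = 2). Regions in first introns had a median signal value of 9.72, against 10.3 in later introns.

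First introns lie closer to the start of the gene, and at matched distance the order of the densities was not constant. Regions in first introns lay a median of 13.5 kb from the principal start site, against 39.7 kb in later introns. Between 1 and 5 kb the density was 11.3 per Mb in first introns (10.2 to 12.4) against 7.92 in later introns (6.66 to 9.34). From 5 to 10 kb it was 11.2 against 10.7, from 10 to 25 kb 10.9 against 9.57, and from 25 to 50 kb 8.2 against 8.26. From 50 to 100 kb it was 5.48 against 6.55 and from 100 to 200 kb 2.95 (2.22 to 3.85) against 4.29 (3.9 to 4.71), where first introns were the less dense. Over 200 kb it was 3.39 (2.53 to 4.46) against 2.26 (2.04 to 2.5), but 41 of the 51 pairs in first introns there lay in Gm20388, a gene record whose body spans many other genes. Without Gm20388, an alternative added after seeing the data, the density over 200 kb was 0.86 (0.412 to 1.58) against 2.26, so first introns were again the less dense, and the ratio over all distances was 1.43.

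**Figure D3:**
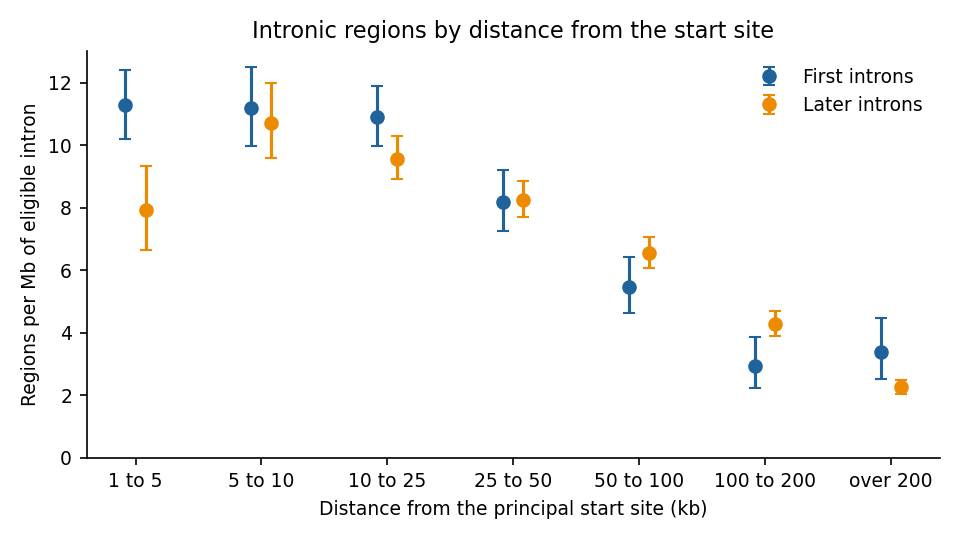
Intronic regions per Mb of eligible intron (vertical axis) by distance from the principal start site (horizontal axis, kb) in first introns (blue) and later introns (orange), with exact Poisson intervals. First introns are denser between 1 and 5 kb, at 11.3 against 7.92, and in both kinds every density past 100 kb is below those under 50 kb. The first-intron value past 200 kb rests on Gm20388, as given in the text.

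CTCF matches separated first from later introns, and the myeloid motifs did so less. They stood at 122 of 1715 regions in first introns (7.11%) against 497 of 3467 in later introns (14.3%), a difference of -7.22 points (-8.87 to -5.49). The PU.1 core was at 10.4% against 8.94%, a difference of 1.5 points whose interval includes 0 (-0.189 to 3.28). For CEBP the shares were 5.71% and 6.92%, for the RUNX core 16.6% and 15.2%, and for AP-1 7.76% and 6.95%, each with an interval of the difference that includes 0. Replicate 2 held 41.3% of the regions in first introns and 38.9% of those in later introns.

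Host genes numbered 3901, of which 3244 were protein-coding, or 16.9% of the 19252 protein-coding genes with eligible intron. A single gene hosted 6101 of the regions, and 398 lay in 2 or more overlapping genes. A protein-coding host was present for 5749 regions (88.5%). For 5167 of these (89.9%, 89.1 to 90.6%) the nearest protein-coding start site belonged to a host. Most hosts had few regions, with 1998 protein-coding genes hosting 1, 661 hosting 2, 246 hosting 3 and 141 hosting 4. The 198 hosts of 5 or more held 1280 regions (19.7%), and 15 genes hosted 10 or more.

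Genes that host an intronic region more often had an open promoter. Of the 3244 hosts 2306 did (71.1%, 69.5 to 72.6%), against 7240 of 16008 genes that host none (45.2%) and 49.6% of all these genes. The difference was 25.9 percentage points (24.1 to 27.6). By the list of replicate 1 the shares were 71.3% of hosts and 44.9% of other genes, and by that of replicate 2 they were 62.2% and 40.9%. With the number of regions hosted, the share with an open promoter was 45.2% at 0, 68.3% at 1, 72.3% at 2, 78.6% at 3 or 4, 80.3% at 5 to 9 and 80% at 10 or more (12 of 15 genes).

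Longer genes can hold more regions, so the same comparison was made by length of eligible intron. Among genes with 20 to 50 kb, 72.7% of hosts and 52.5% of other genes had an open promoter. With 50 to 100 kb the shares were 74.7% and 47.5%, with 100 to 200 kb 72.4% and 32.3%, and over 200 kb 60.8% and 14%, a difference of 46.9 points (40.7 to 52.6). Intronic regions stood at 11.6 per Mb in genes with an open promoter and 2.97 per Mb in the others, a ratio of 3.91. That ratio was 3.99 in the list of replicate 1 and 3.18 in that of replicate 2 (mean 3.58 ± 0.573, SD, n = 2). It was above 2 in every class of length, from 2.04 to 5.83, and over 200 kb the densities were 7.19 and 1.23 per Mb. A region within 1 kb of a start and an intronic region are read from the same lists, so both depend on the same libraries. An intronic region with its summit past 1 kb can also reach within 1 kb of a start and so count as its host's open promoter. How many hosts were open only in this way was not counted, so part of the difference may be built in.

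**Figure D4:**
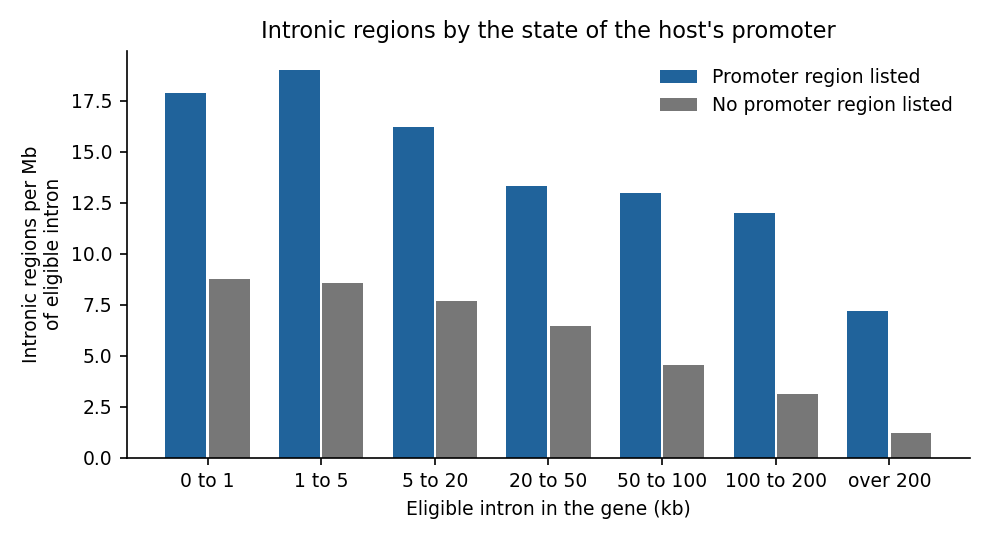
Intronic regions per Mb of eligible intron (vertical axis) in genes with an open promoter (blue) and in genes without (grey), by length of eligible intron in the gene (horizontal axis, kb). Density is higher with an open promoter in all 7 classes, and over 200 kb it is 7.19 against 1.23 per Mb.

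Regions in hosts with an open promoter were close to those in other hosts in signal value and in the share found by replicate 2, but held fewer CTCF and AP-1 matches. Their median signal value was 10.1 against 10.3, and replicate 2 held 39.9% against 39.7%. CTCF matches stood at 10.9% against 15.3% (a difference of -4.37 points, -6.53 to -2.35) and AP-1 matches at 6.74% against 8.68% (-1.94 points, -3.67 to -0.372). The PU.1 core was at 9.72% against 8.96%, with an interval of the difference that includes 0.

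The longest lists of regions in 1 gene came from very long gene bodies. Gm20388 hosted 44 regions (49 in the list of replicate 1 and 19 in that of replicate 2), all within the first intron of its single transcript. Its annotated body spans 4434.9 kb of chromosome 8 and holds 71 other protein-coding genes, and 24 of its regions also lie in another protein-coding host, 6 of them in Gse1, 4 in Ankrd11 and 1 in Cyba. Fgfr2, a fibroblast growth factor receptor gene, hosted 15 regions in an annotated body of 2960.9 kb, but its principal transcript spans 102.5 kb and held 0 of them. Of those 15 regions 8 also lie in Fam53b, Lhpp, Oat or Nsmce4a. The counts of both genes therefore rest on the extent of the annotated body.

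The other hosts of 10 or more regions named by the rule held most of theirs in principal introns. Pde4d, a phosphodiesterase that breaks down cyclic AMP, hosted 14 regions over 1503.5 kb, 13 of them in principal introns. Its region at 1326.3 kb from the gene's start, printed above, scored 23 in replicate 1, 16.8 in replicate 2 and 23.9 in the pooled list on the authors' signal scale. The lists held 17 regions of this gene in replicate 1 and 6 in replicate 2. Arid1b, a subunit of the BAF chromatin remodelling complex, hosted 12 (12 in replicate 1 and 7 in replicate 2), of which 7 lay in its intron 4. Prkce, which encodes protein kinase C epsilon, also hosted 12, with 12 in the list of replicate 1 and 3 in that of replicate 2.

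Foxp1, a forkhead repressor gene, hosted 13 regions over 597.4 kb, in introns 2, 4, 7 and 8 of its principal transcript and in introns of longer transcripts. The list of replicate 1 held 18 and that of replicate 2 held 2. Signal values in the less stringent lists ran from 5.87 to 14.9 in replicate 1 and, for regions with a value there, from 5.33 to 11.3 in replicate 2. By the IDR lists, replicate 2 held a small share of what replicate 1 held in Foxp1. The less stringent list of replicate 2 gave a value for most of the 13 regions.

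Ptk2b, the tyrosine kinase Pyk2 that acts below integrins, was compact beside these, with 11 regions in 127.8 kb, or 9.65 per 100 kb of eligible intron. Introns 1, 2, 4 and 5 held all of them, and 6 lay in intron 1. The strongest, in intron 2, scored 14.1 in both replicates. The region of intron 1 nearest to the start, at 16.2 kb, held a PU.1 core match and scored 12.4 in replicate 1 and 14 in replicate 2. Entpd1 encodes CD39, the enzyme that removes extracellular ATP, and hosted 10 regions (10 in replicate 1 and 4 in replicate 2). Its strongest region, in intron 1, had values of 16.3 in replicate 1 and 15.5 in replicate 2. Poc1b, a centriole gene, hosted 11 regions, with 7 in the list of replicate 1 and 3 in that of replicate 2. With a limit of 2.5 kb from start sites Poc1b kept 5 regions. Akap13, an anchor of protein kinase A, hosted 10, with 12 in replicate 1 and 3 in replicate 2.

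Ranked by density, genes with little eligible intron came first. Among protein-coding hosts of 3 or more regions, Alox5ap had 40.6 regions per 100 kb of eligible intron and Ncf4, the p40 subunit of the phagocyte NADPH oxidase, had 40.4. Klf3, a repressor of the KLF family, followed at 37.6, then Milr1, an inhibitory receptor of mast cells and other leukocytes, at 28.5, and Mob3a at 28.1. P2rx1, a channel opened by ATP, had 26.9, Grk2, the kinase that desensitises chemokine receptors, 26.6, Trim7 24.6, the scavenger receptor gene Ssc5d 24.5 and Pip5k1c, which makes the membrane lipid PIP2, 22.7. These genes have 9.89 to 13.2 kb of eligible intron and 3 to 5 regions each. A change of 1 region therefore moves each value by a large part. With a limit of 2.5 kb from start sites Ncf4, Klf3, Milr1, Mob3a and P2rx1 kept 1 region each, Ssc5d and Pip5k1c 2, and Alox5ap, Grk2 and Trim7 3. The list of replicate 2 held no region in Milr1 or Trim7.

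In Alox5ap 2 regions lay in intron 1 and 3 in intron 2, between 2.33 and 10.2 kb from the start of the gene. In replicate 1 their signal values ran from 5.79 to 9.18, and in replicate 2 from 5.26 to 8.96, in the less stringent lists. A single peak of a replicate can overlap 2 neighbouring regions, as the peak with 7.74 in replicate 2 did in intron 1. The IDR lists held 4 regions in replicate 1 and 1 in replicate 2. In Ncf4 a region of intron 7 stood out, with 12.5 in replicate 1 and 12 in replicate 2, while the other 3 regions lay at 5.5 to 6.43 in replicate 1. In Klf3 a region of intron 2 had 12.8 in replicate 1 and 8.11 in replicate 2, and its other 3 regions lay at 4.45 to 5.77 in the less stringent list of replicate 1.

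The strongest intronic regions were unlike the bulk. The region of highest signal value, in intron 2 of Gnb1l, had 28.5 in replicate 1, 27.7 in replicate 2 and 33 in the pooled list. Words of sequence were taken only from within 50 bp of a summit or flank centre, not from the whole region. All 31-base words of this Gnb1l window occur elsewhere in the genome. All of its 20-base words occur in Rn18s-rs5, a gene for 18S ribosomal RNA on chromosome 17. Gnb1l itself had no open promoter. Of the 10 strongest regions, 3 had at least 50% of their 31-base words elsewhere, those in Gnb1l and Cldn34d among them, against 103 of the 5499 regions ranked past 1000 (1.87%). Further hosts among these 10 include Gm47882, Gm29642, Uchl5, D330045A20Rik, Oxr1, Ahi1 and 1700082M22Rik. In Uchl5, a deubiquitinase of the proteasome, the region had 26.4 in replicate 1 and 18.8 in replicate 2. No 31-base word within 50 bp of its summit occurs elsewhere. In Ahi1, a gene of the primary cilium, 3 regions had 23.1, 17.2 and 15.4 in replicate 1, and 20.3, 12.1 and 13.5 in replicate 2.

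Copied sequence was less frequent in intronic regions as a whole than around them. Regions with at least 50% of their 31-base words elsewhere numbered 123 of 6499 (1.89%, 1.59 to 2.25%), against 738 of 11254 flanks (6.56%) and 2.4% of intergenic distal regions. A region in AC115970.1, with signal values of 17.5 in replicate 1 and 22.6 in replicate 2, was the 1 intronic region made wholly of words of the mitochondrial genome. PU.1 core matches were at 0 of the 10 strongest regions, 7 of the regions ranked 11 to 100 (7.78%), 129 of the next 900 (14.3%) and 483 of the rest (8.78%).

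Genes of neutrophil function were set beside all protein-coding genes, of which 16.9% hosted a region, at 6.65 regions per Mb of eligible intron. The lists were chosen with results of these data known, so their counts are descriptions. Of the 30 neutrophil genes with eligible intron 10 hosted a region, with 54 per Mb in the pooled list, 60.4 in replicate 1 and 19.1 in replicate 2. Of 21 granule and NADPH oxidase genes 10 hosted one, with 49, 56 and 24.5 per Mb. Of 47 myeloid transcription factor genes 28 did, with 27.9, 33.1 and 12.5 per Mb. Of 46 gene records of migration and adhesion signalling 36 did, with 18.9, 22.1 and 7.29 per Mb, and of 30 genes of NF-kB and inflammatory feedback 16 did, with 40.5, 37.9 and 19 per Mb. Of 22 interferon-response genes 4 did, with 11.6, 14.4 and 2.89 per Mb. For all protein-coding genes the replicates gave 7.98 and 2.7 per Mb. Median eligible length was 7 kb in the neutrophil list and 14.2 kb over all genes, and density declined with length, so densities of lists are not matched for length.

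**Figure D5:**
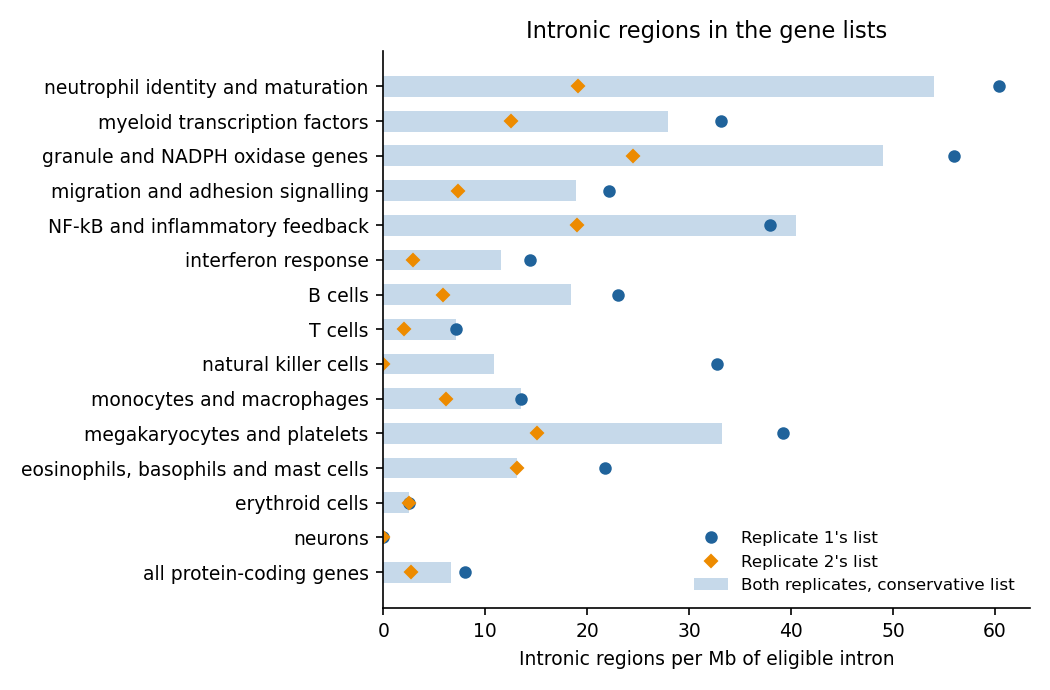
Intronic regions per Mb of eligible intron (horizontal axis) in 14 gene lists and in all protein-coding genes, from the pooled conservative list (bars) and the IDR lists of replicate 1 (circles) and replicate 2 (diamonds). The neutrophil list stands at 54 per Mb and the neuron list at 0, against 6.65 for all genes.

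The neutrophil genes with a region included Alox5ap, with 5, Itgam, Itgb2 and Padi4, with 2 each, and Clec4d, Mmp9, Cxcr2, Csf3r and Il1r2, with 1 each. Itgb2 had its regions in introns 1 and 8. In intron 8 the signal value was 14 in replicate 1 and 15.2 in replicate 2, and in intron 1 it was 8.73 and 8.74, so both replicates gave both regions and the same order. Itgam had regions in introns 2 and 12, each with a PU.1 core match. The value in intron 2 was 7.63 in replicate 1 and 6.57 in replicate 2, and that in intron 12 was 8.12 and 7.37. Both regions of Itgam were in the IDR list of replicate 1 and neither was in that of replicate 2. Padi4 encodes the enzyme that citrullinates histones when neutrophils release chromatin, and its region in intron 1 had 6.35 in replicate 1 and, in the less stringent list alone, 4.59 in replicate 2. The receptor gene Cd177, the adhesion gene Ceacam1 and Fpr1, a receptor for bacterial formyl peptides, have over 5 kb of eligible intron and hosted none.

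Of the 21 granule and oxidase genes, those with a region came from both kinds. Regions lay in the oxidase genes Ncf4 (4), Hvcn1 (2), Cyba, Cybb and Rac2 (1 each), and in Gsr, Arg2, Ctsc and Prtn3 (1 each). Elane, Mpo, Ctsg and Ms4a3, genes of the primary granule or of its precursor stage, hosted none and had no open promoter, and Elane and Ctsg have under 1 kb of eligible intron. Cybb, the catalytic subunit of the oxidase, had its region 16.8 kb from the gene's start, with 11.5 in replicate 1 and, in the less stringent list alone, 7.65 in replicate 2, and the gene had no open promoter. That region is lost with a limit of 2.5 kb or with basic transcripts only. The oxidase genes Ncf1 and Rac1, and Adam8, Bpi and Cd63, hosted none.

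Of the transcription factor genes, Runx1, Ets1 and Fli1 hosted 5 regions each. With a limit of 2.5 kb these were 4, 5 and 3, and of the 5 in Ets1 only 1 lay in an intron of its principal transcript, with 1 also where basic transcripts alone define the gene. The strongest region of Runx1, in intron 6 and printed above, had 15.7 in replicate 1 and 9.87 in replicate 2. A region in its intron 2 at 127.3 kb from the gene's start had 9.83 in replicate 1 and 12.3 in replicate 2, so the replicates ranked them in opposite order. In Ets1 the strongest region, 16.2 kb from the start, had 15.3 in replicate 1 and 10.5 in replicate 2. All 5 regions of Fli1 lay in intron 1. The one nearest to its start, at 2.61 kb, had 11 in replicate 1 and 11.5 in replicate 2. Cbfb, the partner of RUNX proteins, Fosl2 and Irf5 hosted none, and all 3 had an open promoter.

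Signalling genes hosted regions more often than any other list here, in 36 of 46 gene records, with a median of 52.8 kb of eligible intron. Elmo1, which activates Rac together with DOCK proteins during cell movement, hosted 9 regions, of which 6 lay in intron 1. Its strongest region, 49.6 kb from the start, had 13.3 in replicate 1 and 15.7 in replicate 2 and held an AP-1 match, and the replicate 2 value comes from the less stringent list, since the IDR list of that replicate did not hold the region. Iqgap1, a scaffold of the actin cortex, hosted 5, of which the strongest, in intron 4, had 15 in replicate 1 and 14.9 in replicate 2. Btk, Fermt3 and Fgr hosted none in the pooled list, although the list of replicate 1 held 2 regions in Btk and 1 in Fgr.

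In the list of NF-kB and inflammatory feedback, 16 of 30 genes hosted a region and 14 did not. Tlr4, the receptor for bacterial lipopolysaccharide, hosted 3, with 13.2, 9.44 and 16.9 in replicate 1 and 8.95, 7.72 and 13.4 in replicate 2. All 3 lay outside the introns of its principal transcript. Irak3, an inhibitor of signalling from such receptors, hosted 4, and Irak2, a kinase of the same pathway, also hosted 4. In the less stringent lists the regions of Irak3 had 7.02 to 12.3 in replicate 1 and 6.61 to 12.2 in replicate 2. The IDR list of replicate 2 held 2 of these 4 regions of Irak3. Dusp1, a phosphatase of MAP kinases, hosted 7, all outside its principal introns and 26.7 to 52.5 kb from the start of its longest annotated form, where signal values were 10.9 at most. Ikbke and Il1rn hosted none. The interferon-response genes Adar, Rsad2, Ifih1 and Trim25 hosted 1 each, and Ddx58, Eif2ak2 and Gbp2 none.

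Genes that mark other blood cells hosted intronic regions as well. Over all protein-coding genes, the share hosting a region was 16.9%, with 6.65 regions per Mb in the pooled list. Of 18 B-cell genes 8 hosted one, with 18.4 per Mb in the pooled list, 23 in replicate 1 and 5.91 in replicate 2. Ebf1, a transcription factor needed to form B cells, hosted 8, and its strongest region had 16.8 in replicate 1 and 15.8 in replicate 2. Bach2 hosted 6, Pax5 4 and Ciita 3, and in the list of replicate 2 Bach2 and Pax5 had 0. Cd22, Cd79a, Cd79b and Ms4a1 hosted none. Of 17 T-cell genes 6 hosted one, at 7.16 per Mb in the pooled list, 7.16 in replicate 1 and 2.05 in replicate 2, and Cd3g, Cd4 and Bcl11b had none. Of 17 monocyte and macrophage genes 4 did, at 13.5 per Mb in the pooled list, with 5 in Cx3cr1 and 3 in Mrc1, neither of which had an open promoter. The list of replicate 1 gave 13.5 per Mb and that of replicate 2 gave 6.14. Of the 5 regions of Cx3cr1 2 were kept with a limit of 2.5 kb, and none lay in a principal intron.

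Of 12 megakaryocyte and platelet genes with eligible intron 4 hosted a region, at 33.2 per Mb in the pooled list, 39.2 in replicate 1 and 15.1 in replicate 2. These were Vwf with 4, Selp with 3, and Itgb3 and Plek with 2 each. Of 15 eosinophil, basophil and mast-cell genes 3 did (20%), which were Cd200r3, Siglecf and Hdc. Of 12 erythroid genes 1 did (8.33%), Bcl11a, which the B-cell list holds too. Of 11 natural killer genes 1 did (9.09%), Tbx21. The share over all protein-coding genes was 16.9%. None of 18 neuronal genes hosted a region on 16.1 Mb of eligible intron, in the pooled list or in either replicate. Whether these regions come from neutrophils or from other cells in the samples cannot be told apart.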

How the data were processed

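ATAC-seq of 2 replicates of mouse blood neutrophils was used, through 6 deposited peak lists on mm10: conservative and optimal lists of both replicates, and an IDR thresholded and a pseudoreplicated list of each. The signal value is a score per peak that the authors deposited, and a −log10 p value per peak is also in the deposited lists; it was read for named regions only. Not given in the sources used here are the aligner, the peak caller, their versions and any filter. No read numbers were used, so depth is unknown and counting intervals (95%, Wilson for shares, Newcombe for differences, exact Poisson for densities) cover the number of regions only.

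Overlapping peaks were merged and classed by summit against GENCODE M21 as promoter, exon, intron or intergenic, in that order. Principal transcripts (lowest APPRIS number, then longest spliced length) numbered the introns. Sequence came from the RefSeq assembly of GRCm38 (patch 6). Motifs were searched as strings within 50 bp of summits, and flanks of 1 kb that overlap a region were left out. Python 3.11.15, numpy 2.4.6, pandas 2.3.3, scipy 1.17.1, pysam 0.24.0, samtools 1.23.1 and matplotlib 3.10.9 were used. The density calculation was tested on simulated positions.

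With 1 group and 2 libraries no p-value was computed; each replicate's own list shows the spread. The members, gene lists and motifs were chosen with earlier results of these data known. Genes were named by rule: the 10 hosts of most regions, hosts of the 10 strongest regions, the 10 densest hosts of 3 or more regions, and per list up to 4 members with most regions and up to 3 with at least 5 kb of eligible intron and none; others named in the text were chosen after their values were seen. Azu1, Mx2 and Ahsp matched no gene. Genes on chromosome 18 and a few other items are counted and not reported by name, and not every natural killer, erythroid or mast-cell gene under the rule is described. Alternatives were another list, each replicate alone, stronger regions, a 2.5 kb limit, and other annotation and windows. Added after seeing the data were principal introns for hosts, regions without copied sequence, introns that overlap no other gene's intron, and omission of Gm20388. The alternatives were also applied, after seeing the data, to the CTCF difference and to the open-promoter ratio.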

Additional observations from a re-analysis of the deposited data

How the results depend on the processing

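The CTCF difference, the ratio of first to later introns and the open-promoter density ratio kept their direction under every alternative that gave them. Other main values are counts, shares and medians, for which no direction was defined. Over 200 kb from the start site, the order of first and later introns did change without Gm20388, as given above. Without regions copied elsewhere in the genome, an alternative added after seeing the data, the 14 main results with a spread between replicates moved by less than it, and the shares found in replicates 1 and 2 stayed within their counting intervals. Leaving out a replicate gave 2639 to 7780 intronic regions, a share of 18.1 to 28.1%, a median signal value of 9.24 to 10.4, 2.6 to 7.67 regions per Mb, a ratio of first to later introns of 1.46 to 1.52, 8.72 to 19.1% of genes hosting, 62.2 to 71.3% of hosts with an open promoter, and motif shares of 8.77 to 10.7% (PU.1 core), 6.18 to 6.74% (CEBP), 15.8 to 16.1% (RUNX core) and 7.13 to 8.6% (AP-1). The median GC share was 48.5 to 49.8%, the CTCF difference -4.01 to -2.61 points and the open-promoter density ratio 3.18 to 3.99. Of all intronic regions in the list of replicate 2, 98.1% were found in that of replicate 1. Of all those in the list of replicate 1, 33.5% were found in that of replicate 2.

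Regions at or above the median signal value numbered 2562 (2.52 per Mb), with a median of 13.7, and 99.5% and 69% were found in replicates 1 and 2. They gave a ratio of first to later introns of 1.19, 8.82% of genes hosting, 49.6% of hosts with an open promoter (promoter regions were cut likewise), a density ratio of 2.26, RUNX core and AP-1 at 17.6% and 8.55%, and GC at 48.2%. The optimal list gave 80.1% and 27.7% found, a median of 8.83, RUNX core at 15.8% and a density ratio of 4.56. The pseudoreplicated lists gave 99.8% and 91.5% found. A limit of 2.5 kb gave 1.4 for first to later introns and 4.63 for the density ratio, and the 5′-most start site alone gave 60.6% and 2.71. Windows of 100 bp to either side gave 12.4% for the PU.1 core, 11.7% for CEBP, 24.7% for the RUNX core and 11.3% for AP-1. Basic transcripts only gave 15.4% and protein-coding genes only 15.3% for the RUNX core, the second also -2.74 points for CTCF. Windows and thresholds differ by construction; the cause of the other shifts was not tested. No paired analysis was possible because there is 1 group. The lack of read numbers limits what the smaller list of replicate 2 can show.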

Other observations

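Introns of genes that code for no protein held 750 of the intronic regions and had no protein-coding host, in 529 host genes. These regions had a median signal value of 10.4, against 10.1 for those with a protein-coding host. Replicate 1 held 681 of them (90.8%) and replicate 2 held 314 (41.9%), against 89.1% and 39.8% of regions with a protein-coding host. The PU.1 core stood at 9.47% of them against 9.53%, and CTCF at 10.1% against 12%. Gm14005, annotated as a lincRNA on chromosome 2, hosted the most, 10 regions in a body of 324.4 kb, with 10 in the list of replicate 1 and 5 in that of replicate 2. Gm13986, also on chromosome 2, and Gm29282 on chromosome 1 hosted 7 each. The lincRNA gene AC106834.1 on chromosome 19 hosted 5, up to a signal value of 22.6.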
